A study of Rattus norvegicus with 6 samples.

Results

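The genes described here code for the enzymes that turn arachidonic acid into lipoxygenase products, leukotrienes and prostaglandins. They are the lipoxygenases Alox15, Alox12 and Alox5, the 5-lipoxygenase partner Alox5ap, the leukotriene enzymes Lta4h and Ltc4s, the phospholipase Pla2g4a, the cyclooxygenases Ptgs1 and Ptgs2, and the prostaglandin E synthase Ptges. They were chosen by name, with earlier results of these data known. All 10 were found through the gene symbols of the array annotation, among 14217 genes tested. They are read by 12 probe sets that are paired with 1 gene each, and Ptgs1 and Ptges have 2 of these. Where a gene had more than 1, it was led by the probe set whose mean over all 6 arrays was highest.

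RNA came from dissociated spinal cord cultures of newborn rats (postnatal days 1 to 4), kept for 8 days in vitro on 2 substrates. CNT cultures grew on glass coverslips covered with multiwalled carbon nanotubes, and control cultures grew on coverslips covered with polyornithine. Each group had 3 cultures, which the labels call biological replicates without saying whether animals were shared, and each culture was hybridized to its own Affymetrix rat genome array. Both groups received medium with horse serum and nerve growth factor, according to the study's methods. The labels name Sprague-Dawley rats, where the methods name Wistar rats. The cells were not sorted, so each array holds RNA of neurons, glia, microglia and other cells together, and fewer cells of a type and less RNA per cell cannot be told apart. Values are log2 expression after RMA, a method that corrects background, normalizes the arrays to each other and combines the probes of a probe set, and a difference of 1 is a 2-fold difference. The levels of different probe sets cannot be set against each other.

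Arachidonic acid is held in membrane phospholipids until a phospholipase A2 releases it. Lipoxygenases insert oxygen into the free acid at a defined carbon. Alox15, the 12/15-lipoxygenase, is known from macrophages and eosinophils, and in rodents it forms mainly the 12-hydroperoxy product. Alox5 works with Alox5ap to make leukotriene A4, which Lta4h turns into leukotriene B4 and Ltc4s into leukotriene C4. The cyclooxygenases Ptgs1 and Ptgs2 make prostaglandin H2, the common precursor of prostaglandins and thromboxane. In the nervous system microglia hold much of this machinery, Ptgs1 is present without a stimulus, and Ptgs2 is induced by inflammatory signals and by neuronal activity.

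Promoter sequences were taken for 8 of the 10 genes from RefSeq (rat assembly GRCr8). Each covers 250 bases before to 50 bases after the start of the gene. No sequence was available for Alox15 and Alox5ap, so their promoters were not searched for any motif. The 3 below are shown because Alox5 and Ptgs1 are genes with separated groups in these data, while Ptgs2 is the inducible counterpart of Ptgs1. Capitals mark matches on either strand to the GC box GGGCGG, the E-box CACGTG and the C/EBP type motif TTNNGNAAT.
Alox5, chr4:151251077-151251376, minus strand: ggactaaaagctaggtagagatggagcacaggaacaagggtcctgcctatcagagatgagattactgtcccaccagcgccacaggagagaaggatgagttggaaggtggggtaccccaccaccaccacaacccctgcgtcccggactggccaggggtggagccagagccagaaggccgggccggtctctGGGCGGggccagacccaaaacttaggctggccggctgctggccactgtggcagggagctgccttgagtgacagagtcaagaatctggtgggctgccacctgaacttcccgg
Ptgs1, chr3:39981169-39981468, plus strand: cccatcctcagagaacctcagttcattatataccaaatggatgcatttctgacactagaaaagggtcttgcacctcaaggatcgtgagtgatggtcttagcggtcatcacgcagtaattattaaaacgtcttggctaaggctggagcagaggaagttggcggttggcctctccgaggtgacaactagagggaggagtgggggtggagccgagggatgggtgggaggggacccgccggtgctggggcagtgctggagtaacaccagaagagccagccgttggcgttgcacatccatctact
Ptgs2, chr13:64713813-64714112, plus strand: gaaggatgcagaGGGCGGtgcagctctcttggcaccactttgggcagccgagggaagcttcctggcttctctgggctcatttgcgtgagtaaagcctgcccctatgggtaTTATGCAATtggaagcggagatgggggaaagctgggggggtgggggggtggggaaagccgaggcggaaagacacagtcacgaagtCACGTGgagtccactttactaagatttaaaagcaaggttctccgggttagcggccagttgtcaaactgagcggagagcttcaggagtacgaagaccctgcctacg
The Ptgs1 promoter held no match to any motif searched. The Ptgs2 promoter held a GC box at -238 to -233, a C/EBP type match at -140 to -132 and an E-box at -55 to -50, counted from the start, and that of Alox5 held a GC box at -61 to -56. These 3 motifs were added after the sequences had been seen, and 33.1%, 12.3% and 6.42% of all 33469 promoters of the table hold the GC box, the C/EBP type motif and the E-box. GC boxes were also found in Alox12, Lta4h and Ptges, 5 of the 8 genes in all. The STAT6 type motif, the related GAS motif TTCNNNGAA, the interferon type motif (ISRE) and the cyclic AMP element TGACGTCA were found in 0 of the 8 windows, and in 7.28%, 8.87%, 3.92% and 1.83% of all promoters. The TATA box TATAAA was found in that of Pla2g4a, at -108 to -103, and in 14.2% of all promoters. Matches are letters in a window and no evidence of binding, and the array data hold no measurement at these positions.

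No gene passed the limma test between CNT and control cultures at an adjusted p of 0.05 (0.0% of genes higher, 0.0% lower), where an unadjusted p under 0.05 was reached by 342 genes higher and 101 lower in CNT. The adjusted p of each of the 10 genes was 0.999. The fold changes below are therefore measured differences and not calls. RNA quality was read from the beta-actin controls, in which the 3′ end exceeded the 5′ end by 0.92, 2.20 and 1.72 log2 on CNT arrays 1, 2 and 3, against 2.20, 0.62 and 0.66 on control arrays 1, 2 and 3. It was largest in control 1 and CNT 2, followed by CNT 3, and 2 of 3 CNT arrays and 1 of 3 control arrays were above 1. Of the marker genes of the labelled tissue, Gfap of astrocytes had 13.70 to 14.38 in CNT and 13.87 to 14.35 in control cultures, and Stmn2 of neurons had 10.25 to 10.78 in CNT and 10.62 to 10.94 in control cultures.

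**Figure D1:**
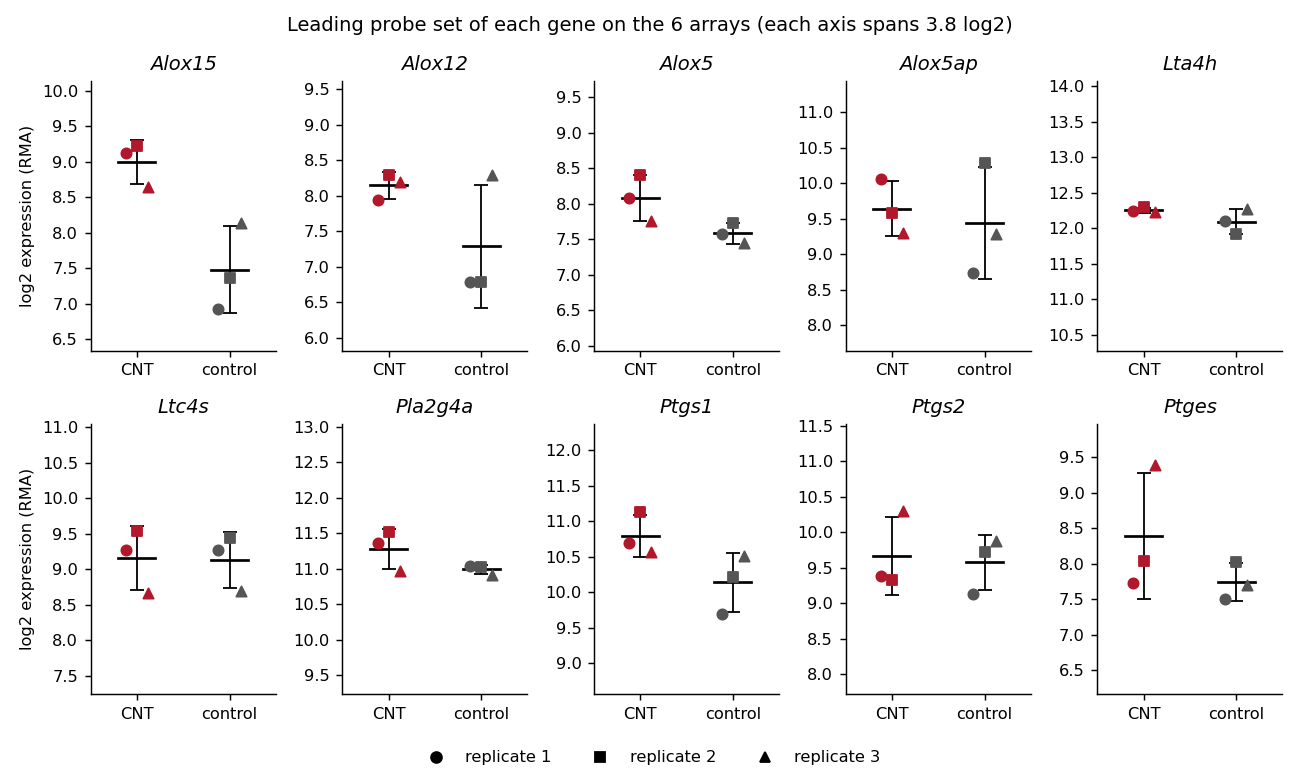
Log2 expression (RMA) of the leading probe set of each of the 10 genes in 3 CNT and 3 control cultures. Points are arrays, with the shape giving the replicate number, thick lines are group means and bars are SDs, and every axis spans the same log2 range; Alox15, Alox5 and Ptgs1 have all CNT points above all control points.

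Alox15 had the largest difference of the 10 genes. Its log2 expression was 9.12, 9.22 and 8.65 in CNT cultures 1, 2 and 3, against 6.93, 7.36 and 8.14 in control cultures 1, 2 and 3. All 3 CNT arrays lay above all 3 control arrays, and the lowest CNT array stood 0.50 above the highest control array. The control cultures spread more widely, and control 3 came closest to the CNT cultures. The SD was 0.31 in CNT and 0.62 in control cultures (n = 3 each). The means differed by a log2 fold change of 1.52 (SE 0.33, 95% interval 0.71 to 2.32), which is 2.87-fold (1.64 to 5.01). The unadjusted p was 0.00351 and the adjusted p of limma 0.999. Alox15 ranked 43 of 14217 genes by fold change and 19 by p, and 0.746% of all genes were at least 2-fold higher. When control 1 and CNT 2, whose beta-actin ends differed most, were left out, it was 1.13 log2 (SE 0.35). Leaving out 1 array at a time gave 1.24 to 1.85.

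Alox12, the platelet-type 12-lipoxygenase, split the control cultures. Its log2 expression was 7.94, 8.30 and 8.20 in CNT cultures, against 6.79, 6.79 and 8.29 in control cultures. The groups overlapped only through control 3, which lay with the CNT cultures, while controls 1 and 2 were lower by more than 1 log2 unit. This gave a log2 fold change of 0.86 (SE 0.42, 95% interval -0.17 to 1.88), or 1.81-fold, with an unadjusted p of 0.0867. Without control 3 it was 1.36 (SE 0.15), and without control 1 it was 0.61. Alox12 and Alox5 are among the dimmest 30% of genes (mean log2 under 8.06). Ptges and Alox15 were just above this limit, at percentiles 30.1 and 31.7 of the mean over all arrays. The control mean of Alox15, 7.48, lay under it.

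Alox5, the 5-lipoxygenase, had log2 values of 8.08, 8.40 and 7.75 in CNT cultures, against 7.57, 7.73 and 7.44 in control cultures. The groups did not overlap, but the lowest CNT value, that of CNT 3, exceeded the highest control value by only 0.02. The log2 fold change was 0.50 (SE 0.18, 95% interval 0.05 to 0.94), or 1.41-fold, with an unadjusted p of 0.0345. Without control 1 and CNT 2 it was 0.33, and the interval then held 0 at an unadjusted p of 0.169. Its partner Alox5ap, the membrane protein that hands arachidonic acid to the 5-lipoxygenase, did not share this order. Alox5ap had 10.06, 9.58 and 9.30 in CNT cultures, against 8.74, 10.29 and 9.29 in control cultures, so that the highest and the lowest array were both controls. Its log2 fold change of 0.21 (SE 0.42, 95% interval -0.80 to 1.22) turned to -0.14 without control 1 and was 0.63 without control 2.

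The leukotriene enzymes differed little between the substrates. Lta4h, the hydrolase of leukotriene B4 synthesis, had 12.24, 12.30 and 12.23 in CNT cultures, against 12.10, 11.92 and 12.27 in control cultures. The CNT cultures were close together and control 3 lay among them. Lta4h thus had a log2 fold change of 0.16 (SE 0.12, 95% interval -0.12 to 0.45), which was 0.07 without control 2 and 0.25 without control 3. Ltc4s, the synthase of leukotriene C4, had 9.27, 9.54 and 8.66 in CNT cultures, against 9.27, 9.44 and 8.69 in control cultures. Its arrays followed the replicate number more than the substrate, with the third replicate lowest in both groups. The log2 fold change was 0.02 (SE 0.29, 95% interval -0.69 to 0.72), and these limits leave a difference of up to 1.65-fold higher or 0.62-fold unresolved. This fit counts the spread between replicate numbers as noise. With the replicate number as a block in limma, the SE was 0.10 at the same fold change.

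Pla2g4a, the cytosolic phospholipase A2 that frees arachidonic acid, had 11.36, 11.52 and 10.97 in CNT cultures, against 11.04, 11.02 and 10.92 in control cultures. CNT 1 and CNT 2 lay above all control cultures and CNT 3 lay among them. On average this was a log2 fold change of 0.29 (SE 0.16, 95% interval -0.09 to 0.68), or 1.23-fold, with an unadjusted p of 0.111. It was 0.18 without CNT 2 and 0.45 without CNT 3. Its centred profile was the closest to that of Alox5 of all pairs among the 10 genes, with a root mean square difference of 0.13 log2 over 6 arrays that share normalization.

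Ptgs1, the constitutive cyclooxygenase, had log2 values of 10.69, 11.13 and 10.57 in CNT cultures, against 9.69, 10.22 and 10.51 in control cultures. The groups did not overlap, by a margin of 0.06 between CNT 3 and control 3. The means were 10.80 ± 0.30 in CNT and 10.14 ± 0.42 in control cultures (SD, n = 3 each). The log2 fold change was 0.66 (SE 0.25, 95% interval 0.05 to 1.27), or 1.58-fold, with an unadjusted p of 0.0388. It was 0.27 without control 1 and CNT 2, with an unadjusted p of 0.175, and 0.43 without control 1 alone. The other Ptgs1 probe set did not repeat the order, with 6.45, 7.11 and 6.78 in CNT cultures against 6.63, 6.41 and 6.97 in control cultures. That probe set had a log2 fold change of 0.11 (SE 0.22).

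Ptgs2, the inducible cyclooxygenase, had 9.38, 9.32 and 10.30 in CNT cultures, against 9.13, 9.72 and 9.87 in control cultures. CNT 3 was the highest array, and the other CNT cultures lay between control 1 and control 2. Ptgs2 had a log2 fold change of 0.09 (SE 0.33, 95% interval -0.70 to 0.89), which was -0.23 without CNT 3 and -0.13 without control 1. Ptges, the microsomal prostaglandin E synthase that is often induced together with Ptgs2, was also highest in CNT 3. Its leading probe set had 7.73, 8.04 and 9.40 in CNT cultures, against 7.51, 8.03 and 7.70 in control cultures. The log2 fold change of 0.64 (SE 0.44, 95% interval -0.43 to 1.71) was 0.14 without CNT 3 and 0.97 without CNT 1. The other Ptges probe set had 7.50, 7.58 and 7.75 in CNT cultures, against 7.26, 7.59 and 7.39 in control cultures, and a log2 fold change of 0.20 (SE 0.13). On that probe set CNT 3 was again the highest array, by a smaller margin.

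**Figure D2:**
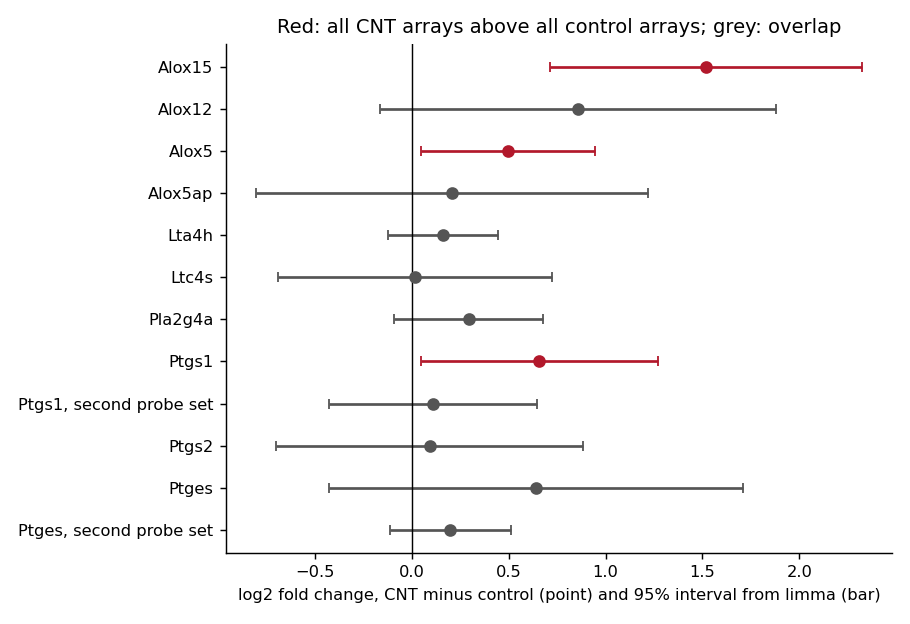
Log2 fold change, CNT minus control, of all 12 probe sets (points) with the 95% interval of limma (bars). The intervals of Alox15, Alox5 and the leading probe set of Ptgs1 lie above 0, and those of the other 9 probe sets hold 0.

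The 10 genes were chosen with earlier results of these data known, so the counts below are a description and not a test of the set. All 10 genes had a log2 fold change above 0, where 58.5% of all genes did. The groups were separated, with every CNT array above every control array, for 3 of the 10 genes (Alox15, Alox5 and Ptgs1), against 5.94% of all genes, and 0 of the 10 had every CNT array below every control array, against 2.05% of all genes. The same 3 genes were higher at an unadjusted p under 0.05, against 2.41% of all genes, and 0 of the 10 were lower, against 0.71%. The median log2 fold change was 0.40 over the 10 genes and 0.03 over all genes. By role, the median was 0.68 for the lipoxygenases and Alox5ap, 0.09 for the leukotriene enzymes and 0.47 for the prostanoid enzymes with Pla2g4a. Without control 1 and CNT 2, 8 of the 10 genes were above 0, where 59.7% of all genes were. In that setting Alox15 was the only one of them at an unadjusted p under 0.05 (0.0336), against 0.513% of all genes, and the median of the 10 genes was 0.23. Leaving out 1 array at a time gave 1 to 4 of the 10 genes at an unadjusted p under 0.05, against 1.08% to 4.71% of all genes.

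The arrays contributed unequally. CNT 2 held the highest value of 7 of the 10 genes, CNT 3 of 2 genes (Ptgs2 and Ptges) and control 2 of 1 gene (Alox5ap). Control 1 held the lowest value of 5 genes, controls 2 and 3 of 2 genes each, and CNT 3 of 1 gene (Ltc4s). Control 1 and CNT 2 also had the largest beta-actin 3′ to 5′ differences. Alox15 and Ptgs1 had their highest value in CNT 2 and their lowest in control 1. Leaving out both arrays must lower the fold change of such a gene, so that fit cannot tell RNA quality from other traits of these cultures. With this difference as a covariate in limma, the log2 fold change was 1.68 for Alox15 (unadjusted p 0.00385), 0.74 for Ptgs1 (unadjusted p 0.0420) and 0.47 for Alox5 (unadjusted p 0.0754), and 9 of the 10 genes were above 0.

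Since many of these enzymes are known from microglia and macrophages, their values were also set against 15 marker genes of these cells. Of the 15 markers, 14 had a log2 fold change above 0, with a median of 0.27, where 58.5% of all genes were above 0. Cd14 was the only one at an unadjusted p under 0.05 in limma (log2 fold change 0.63, SE 0.19), against 2.41% of all genes higher. For 2 of the 15 every CNT array was above every control array, against 5.94% of all genes. The mean over the 15 markers was 12.73, 12.80 and 12.20 log2 on CNT arrays 1, 2 and 3, against 11.81, 12.54 and 12.45 on control arrays 1, 2 and 3. The groups overlapped, and control 1 was the lowest array. Relative to this mean, Alox15 was at -3.60, -3.58 and -3.55 in CNT cultures, against -4.89, -5.18 and -4.31 in control cultures. The CNT cultures lay within 0.1 of each other on this scale, above all control cultures. The difference was 1.21, compared with 1.52 before the markers were taken off (two-sided exact permutation test, p = 0.1, the smallest that 3 arrays against 3 allow), and it ran from 1.02 to 1.46 when 1 array was left out at a time. The other 9 genes overlapped between the groups on this scale. The share of all genes that is separated on this scale was not counted, so the separation of Alox15 here has no reference. Ptgs1 differed by 0.35 (exact p = 0.2), Alox12 by 0.55 (exact p = 0.4) and Alox5 by 0.19 (exact p = 0.5). Pla2g4a differed by -0.01, Alox5ap by -0.10, Lta4h by -0.15, Ptgs2 by -0.21 and Ltc4s by -0.29, with exact p values of 0.6 to 1.0. Ptges differed by 0.34 (exact p = 1.0), with CNT 3 far above the other arrays.

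**Figure D3:**
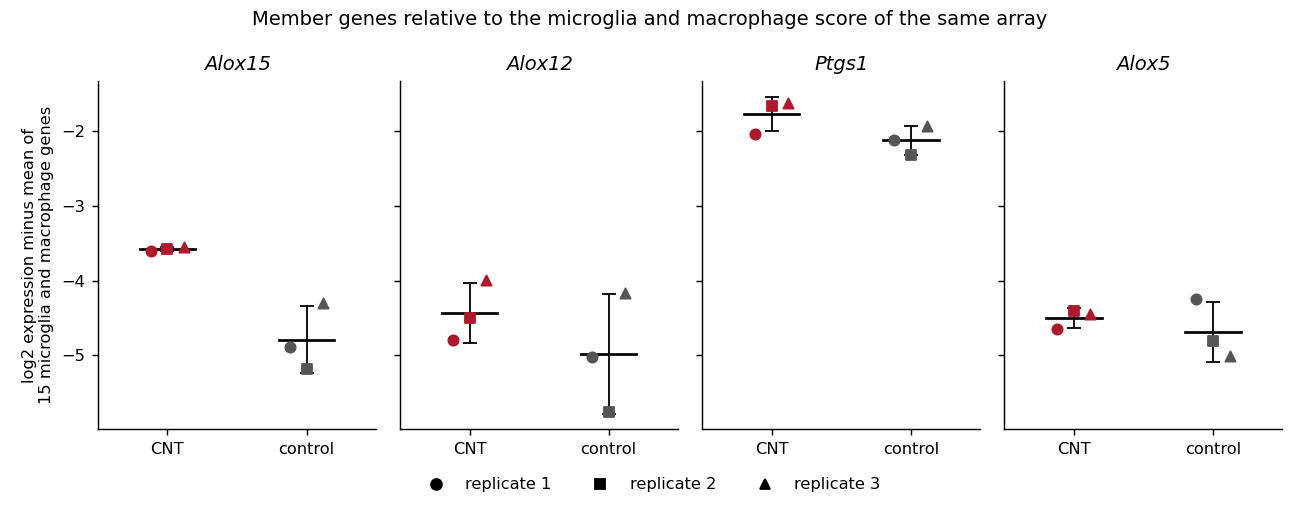
Log2 expression of Alox15, Alox12, Ptgs1 and Alox5 minus the mean of 15 microglia and macrophage markers on the same array, in 3 CNT and 3 control cultures. Points are arrays, thick lines group means and bars SDs; Alox15 is the only one of the 4 with all CNT points above all control points.

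For other cell types, the levels of their markers were examined, and for some lists also the log2 fold changes. All 8 mast cell markers were among the dimmest 30% of genes, and their mean was 6.04 to 6.26 log2 in CNT and 6.08 to 6.18 in control cultures. All 6 measured neutrophil and eosinophil markers were dim as well, with a mean of 5.58 to 5.85 in CNT and 5.42 to 5.59 in control cultures. Prg2 of eosinophils was highest in CNT 2 (7.08). All 6 had a log2 fold change above 0 (median 0.19), where 58.5% of all genes did. For 1 of the 6 every CNT array was above every control array, against 5.94% of all genes. For platelets and megakaryocytes, 5 of 6 listed markers were measured and 2 of them were dim, with a mean of 8.31 to 8.45 in CNT and 8.25 to 8.44 in control cultures. Their levels differed widely, and Pf4 was far above that mean, at 12.67 to 13.13 in CNT and 12.61 to 13.21 in control cultures. For red cell precursors, 4 of 6 markers were measured and 3 were dim, with a mean of 7.26 to 7.55 in CNT and 7.24 to 7.31 in control cultures. Of 8 fibroblast and meningeal markers, 7 had a log2 fold change below 0, with a median of -0.41, and their mean was 11.71 to 12.82 in CNT and 12.73 to 12.83 in control cultures, with CNT 2 lowest. Of 8 neuron markers, 6 were below 0 (median -0.15), and of 7 measured astrocyte markers, 7 were (median -0.07). Of 7 measured oligodendrocyte lineage markers, 5 were above 0 (median 0.04), and of 5 measured endothelial markers, 5 were (median 0.06). The part of cell composition in the results was not tested beyond these values.

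The rest of the eicosanoid pathway was read through 67 listed genes, of which 56 were measured. None passed the adjusted threshold of limma, 37 were above 0 and 19 below, and the median log2 fold change was 0.08. At an unadjusted p under 0.05 there were 3 genes higher (Mgll, Daglb and Cotl1) and 0 lower, where 2.41% of all genes were higher and 0.71% lower. The groups were separated with CNT higher for 5 of the 56, against 5.94% of all genes. The pathway genes thus had a median between that of all genes and that of the 10 genes named at the outset, and the difference between these medians was not tested.

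Among 17 measured genes of arachidonate supply, 13 were above 0 (median 0.15). Mgll, the lipase that cleaves the endocannabinoid 2-arachidonoylglycerol and so yields arachidonic acid, had 10.78, 11.07 and 11.05 in CNT cultures, against 9.71, 9.85 and 10.76 in control cultures. The groups were separated by a narrow margin, because control 3 lay just under CNT 1. Its log2 fold change was 0.86 (SE 0.29, unadjusted p 0.0236), and it ranged from 0.04 to 0.86 over its 4 probe sets, of which 1 was separated. Daglb, a lipase that makes 2-arachidonoylglycerol, had 11.69, 11.95 and 11.59 in CNT cultures, against 10.73, 11.18 and 11.49 in control cultures. As for Mgll, control 3 came closest to the CNT cultures. The log2 fold change of Daglb was 0.61 (SE 0.22, unadjusted p 0.0294), and its other probe set gave 0.51. Without control 1 and CNT 2 the values were 0.61 for Mgll and 0.30 for Daglb, with unadjusted p of 0.169 and 0.145. The secreted phospholipase Pla2g5 was separated at a low level (5.53 to 5.66 in CNT and 5.18 to 5.48 in control cultures), and Acsl4, which couples arachidonic acid to coenzyme A, was at 12.17 to 12.41 in CNT and 11.67 to 12.36 in control cultures.

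Among 8 measured genes of other lipoxygenases and leukotriene steps, 6 were above 0 (median 0.11). Dpep2, the dipeptidase that turns leukotriene D4 into leukotriene E4, had 8.60, 9.16 and 8.54 in CNT cultures, against 7.47, 7.48 and 8.69 in control cultures. As for Alox12, control 3 lay among the CNT cultures. Its log2 fold change was 0.89 (SE 0.37, unadjusted p 0.0535), and 0.49 without control 1 and CNT 2. Cotl1, a coactosin-like protein that binds the 5-lipoxygenase, had a log2 fold change of 0.38 (SE 0.14, unadjusted p 0.0379), and that of Mgst2, a glutathione transferase able to make leukotriene C4, was 0.34 (SE 0.46).

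Of the 8 terminal prostanoid synthases, 5 were above 0 (median 0.07). Tbxas1, the thromboxane synthase, had 11.41 to 12.14 in CNT and 10.92 to 11.73 in control cultures, and the groups overlapped through CNT 3. Its log2 fold change of 0.48 (SE 0.28) was 0.11 without control 1 and CNT 2, and ranged from 0.26 (without control 1) to 0.70 (without CNT 3) when 1 array was left out. Hpgds, the hematopoietic prostaglandin D synthase, had a log2 fold change of 0.30 (SE 0.37), and Ptges3, the cytosolic prostaglandin E synthase, one of -0.01 (SE 0.08). Ptgis, the prostacyclin synthase, had a log2 fold change of -0.56 (SE 0.50), and control 1, at 9.54, was its highest array, with the others between 7.40 and 8.51.

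Of 12 measured eicosanoid receptors, 10 were among the dimmest 30% of genes and the median log2 fold change was 0.04. Ptger3, a prostaglandin E2 receptor, had a log2 fold change of 0.20 (SE 0.12), and the chemerin and resolvin receptor Cmklr1 had one of 0.20 (SE 0.17). That of Ptgdr2, a prostaglandin D2 receptor, was 0.14 (SE 0.11). Of 11 genes of inactivation, transport and epoxide steps, 4 were above 0 and 7 below (median -0.01). The microsomal epoxide hydrolase Ephx1 had a log2 fold change of -0.61 (SE 0.38), the prostaglandin transporter Slco2a1 one of -0.47 (SE 0.34), the epoxygenase Cyp2j4 one of 0.27 (SE 0.23) and the prostaglandin reductase Ptgr2 one of -0.02 (SE 0.13).

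**Figure D4:**
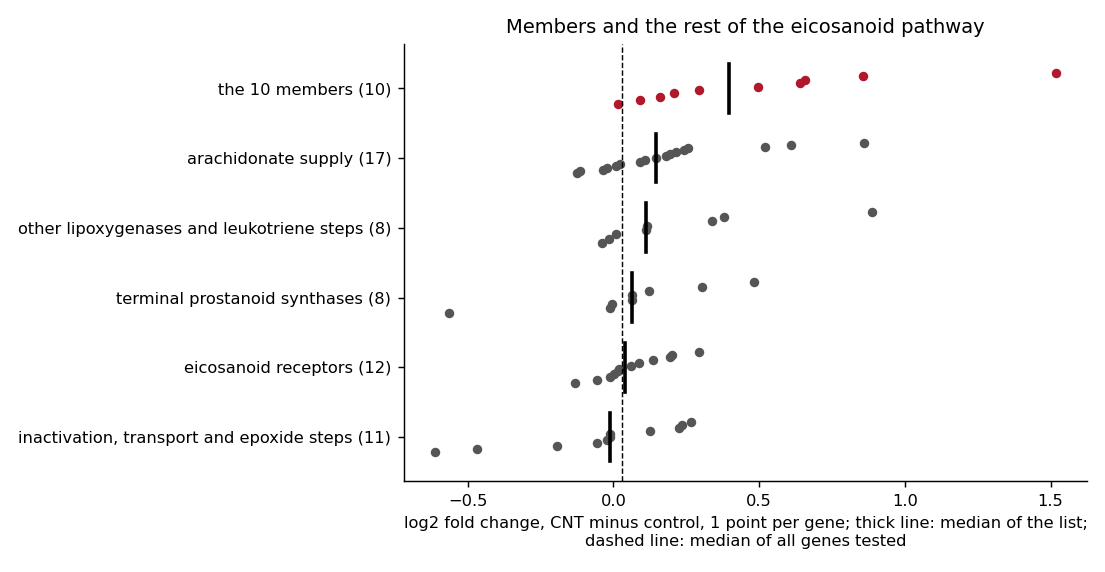
Log2 fold change, CNT minus control, of the 10 genes and of the measured genes of 5 lists of the rest of the eicosanoid pathway (1 point per gene). Thick lines are list medians and the dashed line is the median of all genes tested; the medians run from 0.40 for the 10 genes to -0.01 for inactivation, transport and epoxide steps.

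Since Alox15 is known as a target of interleukin 4 and interleukin 13 in macrophages, 13 genes of that response were listed and 12 measured. Of these 12, 8 were among the dimmest 30% of genes. The median log2 fold change was 0.06, and 9 were above 0, against 58.5% of all genes. At an unadjusted p under 0.05 in limma there were 0, against 2.41% of all genes higher and 0.71% lower. Pparg, a nuclear receptor activated by fatty acid products, had 7.09, 8.11 and 8.33 in CNT cultures, against 5.37, 5.43 and 8.14 in control cultures. Control 3 was again among the CNT cultures, and the log2 fold change of 1.52 had an SE of 0.80 and was 0.92 without control 1 and CNT 2. Il4r, the interleukin 4 receptor, had a log2 fold change of 0.36 (SE 0.24), and that of Mrc1, the mannose receptor of alternatively activated macrophages, was -0.01 (SE 0.24). The chemokine Ccl24 was separated but dim, at 5.41 to 5.66 in CNT and 5.23 to 5.39 in control cultures.

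For Ptgs2, 9 genes that induce it or are induced with it were measured. Their median log2 fold change was 0.16, and 6 were above 0, against 58.5% of all genes. At an unadjusted p under 0.05 in limma there were 0, against 2.41% of all genes higher and 0.71% lower. Cebpb, a C/EBP transcription factor, had a log2 fold change of 0.31 (SE 0.21), the cytokine Tnf one of 0.59 (SE 0.43) and the immediate early gene Egr1 one of -0.22 (SE 0.21). Il1b, Il1a and Il6 were looked at for single arrays after their values had been seen. Il1b, interleukin 1 beta, had 8.84, 9.86 and 11.47 in CNT cultures, against 8.84, 8.68 and 10.60 in control cultures. Il6 had 7.37, 7.15 and 9.76 in CNT cultures, against 7.36, 7.54 and 9.23 in control cultures, and Il1a had the third replicate highest in both groups too (9.97 in CNT 3 and 9.21 in control 3). Ptgs2 likewise had its highest value in CNT 3 and its highest control value in control 3. For these genes the third replicates of both substrates stood above the others, and the spread within each group was wider than the difference between the groups.

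The genes whose centred log2 profile over the 6 arrays was closest to a given enzyme were found by the root mean square difference. For Alox15 they were Hsh2d (0.17), Trim30d (0.21) and Slco4a1 (0.23), compared with a spread of 0.86 of Alox15 itself. Trim30d, for example, had 11.09, 11.44 and 11.06 in CNT cultures, against 9.52, 9.87 and 10.62 in control cultures. All CNT arrays were above all control arrays and control 3 was the nearest, as for Alox15. This likeness follows largely from choosing the gene by its closeness to Alox15. For Ptgs1 the closest were Pctp (0.04), Arhgap25 (0.06) and Nrros (0.06), with a spread of 0.44 of Ptgs1. For Alox5ap they were Clcn7 (0.13), Dicer1 (0.15) and Fam177a1 (0.15), with a spread of 0.52, and for Ptgs2 Clspn (0.12), Kcnc1 (0.13) and Cyp1b1 (0.14), with a spread of 0.39. Among the 10 genes themselves, Alox15 was closest to Alox12 (0.45) and to Ptgs1 (0.47), and Ptgs2 and Ptges differed by 0.39.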

How the data were processed

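Expression was measured in 3 CNT and 3 control cultures, with 1 array per culture. The deposited values are log2 expression for the manufacturer's 31099 probe sets, made by the authors with RMA; its version is not given in the sources used here. For the paper, custom EntrezGene probe set definitions were used instead. The annotation gives 1 gene for 20826 of them, several for 436 and none for 9780, and 57 are control probe sets; current RefSeq symbols changed 0 of these names. Precision is limited by the number of arrays. The values were not normalized again. A gene was led by its single-gene probe set of highest mean, and 14217 genes were compared, CNT minus control, with limma (version 3.58.1, functions lmFit and eBayes, R 4.3.3). The p-values of all genes were adjusted together by Benjamini-Hochberg, and 0.05 was the threshold. The rank product of the study was not run, since it estimates false positives by shuffling genes within arrays. Values relative to the microglia and macrophage markers were compared by an exact two-sided permutation test over 20 assignments of the arrays. The remaining steps ran in Python 3.11.15, and the limma fit was tested on simulated data.

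The enzymes and lists were chosen with earlier results of these data known. Named were the 10 genes, the 3 genes of smallest unadjusted p and the 1 of highest mean of each pathway and signal list, the 2 of highest mean of each cell list (of these only Gfap, Stmn2, Prg2 and Pf4 are given), and the 3 closest profiles of Alox15, Alox5ap, Ptgs1 and Ptgs2. Cd14, Il1a, Il1b and Il6 were named after their values were seen. Alternatives were 3 further scalings of the arrays (quantile, median centring and cyclic loess), array weights, a trended robust variance, probe sets averaged per gene or tested singly, removal of the dimmest 30%, the replicate number as a block, the beta-actin difference as a covariate, and fits without control 1 and CNT 2 or without each array.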

Additional observations from a re-analysis of the deposited data

How the results depend on the processing

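The fold changes of Alox15, Alox5, Alox12, Lta4h, Ptgs1, Ptges and Pla2g4a kept their direction under every alternative that gave them a value, and none of the 10 genes reached the adjusted threshold under any. Alox15 ranged from 1.13 to 1.68 log2 over 11 alternatives. The number of genes past the threshold was 0 in those 11 and 0 to 2 when 1 array was left out. The 2 genes were Mx1 and Prl6a1, higher without control 3. The median of the 10 genes was 0.23 to 0.48 over the 11 alternatives and 0.30 to 0.59 when 1 array was left out, and it was 0.59 without control 2.

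Alox5ap turned to -0.11 without control 1 and CNT 2, and ranged from -0.14 to 0.63 when 1 array was left out. Ltc4s was -0.036 with the beta-actin covariate and -0.11 without control 1 and CNT 2, and ranged from -0.20 to 0.27 when 1 array was left out. Ptgs2 was -0.10 with array weights, and -0.23 to 0.27 when 1 array was left out. Relative to the microglia and macrophage markers, leaving out 1 array gave -0.26 to 0.19 for Alox5ap, -0.37 to 0.084 for Lta4h, -0.60 to 0.0064 for Ltc4s, -0.72 to 0.072 for Ptgs2, -0.36 to 0.74 for Ptges and -0.14 to 0.24 for Pla2g4a. The cause was not tested.

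Genes at an unadjusted p under 0.05 numbered 73 to 546 higher and 43 to 223 lower over the 11 alternatives, 153 to 670 higher and 53 to 412 lower when 1 array was left out (412 without CNT 3), and 546 higher and 54 lower after median centring, against 342 and 101. Alox5 and Alox12 have no value without the dimmest 30% of genes, and the mean of its probe sets moved Ptgs1 to 0.38. Same-numbered cultures did not deviate together in every pair (correlations of -0.13, 0.36 and 0.51), and CNT 1 with control 2 had a correlation of 0.68. The study's methods name 3 culture series per substrate, without saying whether equal numbers mark the same series. The numbers were therefore not taken as pairs, although these correlations do not settle whether the cultures were paired. With the replicate number as a block, 0 genes passed, 179 genes were lower at an unadjusted p under 0.05, and Alox15 was at 1.52 (SE 0.36, adjusted p = 0.930 by limma). Over all alternatives the adjusted p of Alox15 was at least 0.147, reached without control 3.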
